A study of Arabidopsis thaliana with 8 samples.

Results

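Metal homeostasis in Arabidopsis thaliana is represented here by 55 genes chosen by identifier for what their products do. They are the NRAMP, ZIP and IRT, MTP, HMA, COPT, FRO, YSL and OPT3 transport and reduction genes, the nicotianamine synthases, the ferritins and VIT1, the bHLH factors and the BTS ubiquitin ligase of iron regulation, the copper regulator SPL7, the copper chaperone CCH and 3 superoxide dismutases. Of these 55 genes, 5 have a row in the authors' deposited table of 2958 called genes, and 50 are not listed. The table compares 4 div1 libraries with 4 ev libraries of poly(A) RNA, all from rosette leaf protoplasts of 4-week-old Col-0 plants, a single wild-type accession. Protoplasts are leaf cells without walls. Both groups were transfected with plasmid by polyethylene glycol and kept overnight before RNA was taken. The div1 libraries received DIV1, a MYB-related transcription factor, and the labels do not expand ev. The study asked which leaf genes respond to DIV1 in a transient assay, so the values describe isolated cells after a night of expression and not whole plants. The labels do not tie a replicate to its own plant or transfection, so the p-values may measure technical spread only.

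Arabidopsis roots reduce iron before they take it up, and the ferric reductase FRO2 and the transporter IRT1 are switched on by FIT acting with bHLH38, bHLH39, bHLH100 and bHLH101. In leaves, metals move between cells bound to nicotianamine through YSL carriers, enter and leave the vacuole through MTP, VIT1 and NRAMP proteins, and end up in plastid and cytosolic enzymes such as the superoxide dismutases. Excess iron is held in plastids by ferritin. When copper is scarce, SPL7 raises copper uptake genes and the microRNA miR398, which directs cleavage of the transcripts of copper/zinc superoxide dismutases, and FSD1, an iron enzyme, takes their place.

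The sequences upstream of 3 of the 5 listed genes are given because they stand before the gene with the smallest p-value of the 5 (NRAMP1), the only storage gene (FER3) and the only iron regulator (FIT, annotated as FRU) listed among the 55. Each is the 250 bases before the annotated gene start in RefSeq TAIR10.1, 5′ to 3′ on the gene's strand. Capitals mark words searched on both strands, namely GATAAG and TATCCA, which MYB-related factors are known to bind, CACGTG, a bHLH word, GTAC, the SPL7 core, and GTCGAC, the core of the zinc deficiency element.
NRAMP1 upstream, chr1:30376073-30376322, minus strand: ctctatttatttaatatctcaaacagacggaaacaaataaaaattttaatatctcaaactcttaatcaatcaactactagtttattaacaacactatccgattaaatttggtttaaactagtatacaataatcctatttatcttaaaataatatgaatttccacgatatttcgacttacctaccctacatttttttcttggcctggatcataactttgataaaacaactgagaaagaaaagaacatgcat
FER3 upstream, chr3:20816036-20816285, minus strand: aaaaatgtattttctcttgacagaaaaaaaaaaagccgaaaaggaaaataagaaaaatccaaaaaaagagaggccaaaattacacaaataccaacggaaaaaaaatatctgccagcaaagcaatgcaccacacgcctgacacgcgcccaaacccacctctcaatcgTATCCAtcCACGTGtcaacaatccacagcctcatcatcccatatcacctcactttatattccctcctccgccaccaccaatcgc
FRU upstream, chr2:12004408-12004657, plus strand: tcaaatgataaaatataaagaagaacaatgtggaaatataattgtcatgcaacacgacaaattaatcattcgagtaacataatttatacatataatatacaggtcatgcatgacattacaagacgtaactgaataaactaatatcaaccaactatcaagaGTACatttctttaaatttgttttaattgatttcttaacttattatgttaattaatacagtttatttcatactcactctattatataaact
The NRAMP1 window held none of the 5 words, and neither did the windows of ZIP5 and CSD2. FER3 held TATCCA starting 84 bases upstream and CACGTG starting 76 bases upstream, with no shared base. Of 27443 protein-coding windows of this length, 13.6% held TATCCA and 6.49% held CACGTG. FRU held GTAC 90 bases upstream, a word found in 34.3% of windows. GATAAG occurred in 12.3% and GTCGAC in 1.64% of all windows and in 0 of the 5 members' windows. In the 1000 bases upstream, GATAAG and GTCGAC were each found in ZIP5 alone of the 5 genes, against 40.6% and 6.95% of all windows. TATCCA was found there in 3 of the 5 genes, FER3, FRU and CSD2, against 43.8% of all windows. GTAC was found in 3 of the 5, ZIP5, FER3 and FRU, against 82.3% of all windows, and CACGTG in 1, FER3, against 14.8%. The 1000 bases before NRAMP1 held 0 of the 5 words. A word in a window is a match of letters only.

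In the authors' deposited table, 3 of the 55 genes were higher in div1 libraries and 2 lower, which is 5.45% and 3.64% of the genes. The authors' adjustment covered 18010 genes, as worked out from their p-values, of which 9.14% were called higher, 7.28% lower and 16.4% in either direction. With 9.09% of the 55 called in all, the members' share is under the background, although it is not known how many of the 55 were tested. A change of at least 2-fold was listed for 3 members, NRAMP1, ZIP5 and FRU, and for 5.67% of all genes tested. A gene without a row was either not past an adjusted p of 0.05 in the authors' DESeq2 comparison or not tested, and it carries no p-value here. Direction was read from DIV1 (AT5G58900), whose log2 fold change is 7.61 (SE 0.88) in the authors' deposited table. Total counts per library and values per replicate were not used here, so every error below is the authors' standard error (SE) on the log2 scale and every interval is 95% and follows from it.

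**Figure D1:**
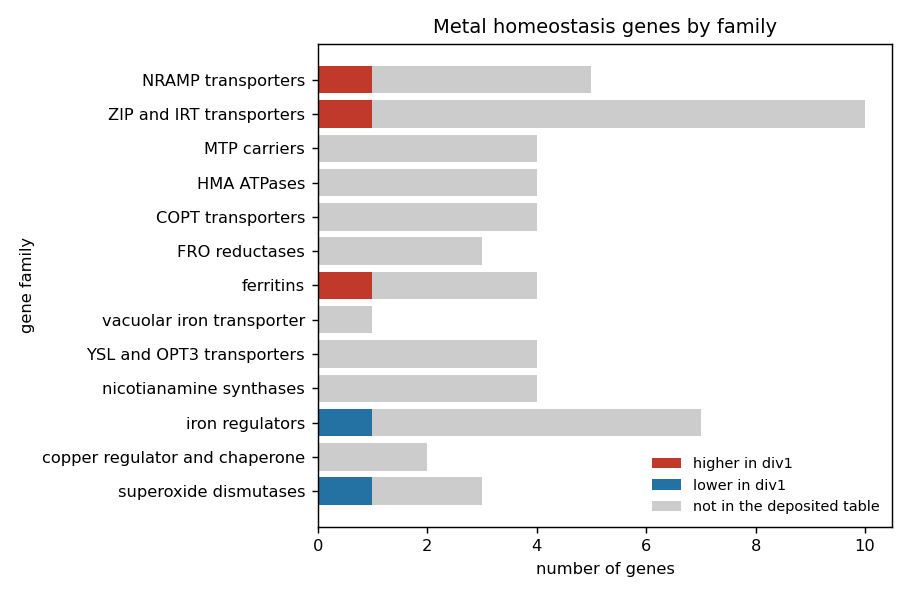
Number of genes in each of the 13 families of the 55 metal homeostasis genes (horizontal axis), split into those listed as higher in div1 (red), listed as lower (blue) and without a row (grey). A call is a gene past an adjusted p of 0.05 in the authors' comparison. The ZIP and IRT family, with 10 genes, has 1 listed gene, and 8 of the 13 families have 0.

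Among the uptake transporters, NRAMP1 and ZIP5 rose. NRAMP1 (AT1G80830, chromosome 1, 30372668 to 30376072, minus strand, TAIR10.1) encodes a plasma membrane carrier of manganese and iron, known for high-affinity manganese uptake in roots and annotated as induced in iron-deficient leaves. Its mean normalized count over all libraries, an authors' signal per gene, was 2764 in the deposited table. From that mean and the fold change, the estimated group means were 4697 in div1 libraries and 830 in ev libraries, or 1937 and 342 per kilobase of exon. The log2 fold change in the authors' deposited table was 2.50 (SE 0.15, adjusted p 4.33e-59), a 5.66-fold difference with an interval of 4.62 to 6.94. Of the 1646 genes called higher, 126 had a larger fold change, while 4 genes of the whole table, in either direction, had a smaller p-value, since its rank by p was 5. Its SE is close to the median of 0.15 among the 854 listed genes whose mean lies within 2-fold of its own.

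NRAMP1 ends in a convergent gene. Its last exon shares 132 bases with CCR2, a cinnamoyl-CoA reductase gene on the other strand, out of 2425 exon bases, and the library kit does not mark strand. CCR2 is not listed. The closest relative, NRAMP6, lies in a like arrangement and shares 473 exon bases with CCR1, of the same enzyme family. NRAMP6 is not listed either. The coding sequence of NRAMP1 is 82.9% identical to that of NRAMP6 over 1575 aligned bases, with a longest identical run of 41 bases. Against NRAMP2, NRAMP3, NRAMP4 and NRAMP5 identity is 58.1% to 59.8% and the longest run is 14 bases. How reads matching both genes were counted is not stated in the labels. NRAMP3 and NRAMP4, which release metals from the vacuole, and NRAMP2, a carrier of the secretory pathway, are not listed. On the side away from CCR2, the nearest protein-coding gene to NRAMP1 is WRKY40, 7488 bases away. WRKY40 is listed in the other direction, with a log2 fold change of -0.62 (SE 0.17, the authors' deposited table).

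**Figure D2:**
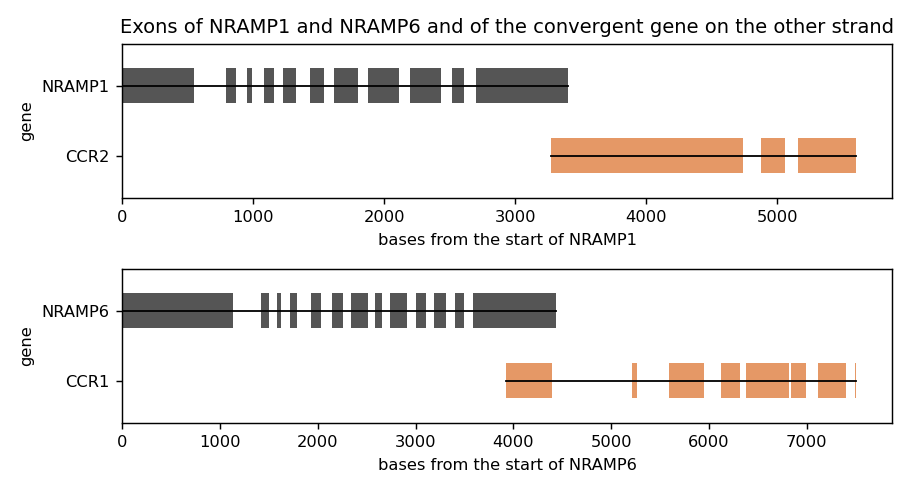
Exons (boxes) of NRAMP1 with CCR2, and of NRAMP6 with CCR1, drawn to scale in bases from the start of the NRAMP gene (horizontal axis). The gene ends meet on opposite strands, with 132 shared exon bases for NRAMP1 and 473 for NRAMP6.

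ZIP5 (AT1G05300, chromosome 1, 1544927 to 1547849, minus strand, TAIR10.1) belongs to the ZIP family of zinc and iron importers. Its mean normalized count was 1255, with estimated group means of 1735 in div1 libraries and 775 in ev libraries, or 797 and 356 per kilobase of exon. The log2 fold change in the authors' deposited table was 1.16 (SE 0.25, adjusted p 8.18e-05), which is 2.24-fold with an interval of 1.59 to 3.15. This SE is larger than the median of 0.17 among the 1039 listed genes of similar mean. The intervals of NRAMP1 and ZIP5 do not overlap on the log2 scale, at 2.21 to 2.79 and 0.67 to 1.66. Estimated per kilobase of exon, the ev means of both genes were close, at 342 for NRAMP1 and 356 for ZIP5. The other 9 ZIP and IRT genes are not listed. They include IRT1, the main iron importer of roots, IRT2, IRT3, and ZIP1, ZIP2, ZIP3, ZIP4, ZIP9 and ZIP11. The nearest relative of ZIP5 in coding sequence is ZIP3, at 79.2% identity and a longest identical run of 24 bases, and the other 8 lie between 59.3% and 63.4%. ZIP5 overlaps no annotated gene, and its neighbours at 2494 and 2653 bases are not listed.

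Iron storage gave the smallest change. FER3 (AT3G56090, chromosome 3, 20813904 to 20816035, minus strand, TAIR10.1) encodes a plastid ferritin, a cage protein that holds iron. Its mean normalized count was 3184, with estimated group means of 3551 in div1 libraries and 2817 in ev libraries, or 2781 and 2206 per kilobase of exon. The log2 fold change in the authors' deposited table was 0.33 (SE 0.12, adjusted p 0.0442), or 26.1% higher with a fold interval of 1.07 to 1.49. Its test statistic of 2.70 stands just past the smallest size in the table, 2.64, and 1585 of the 1646 higher calls were larger. FER1, FER2 and FER4 are not listed. FER4 is its nearest relative, at 79.3% coding identity with a longest run of 32 bases, against 69.6% for FER1 and 71.5% for FER2. VIT1, which loads iron into the vacuole, is not listed. FER2 shares 8 exon bases with ENGase85B, which is listed. FER4 shares 118 with AT2G40290 and VIT1 98 with RR14, neither of which is listed.

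**Figure D3:**
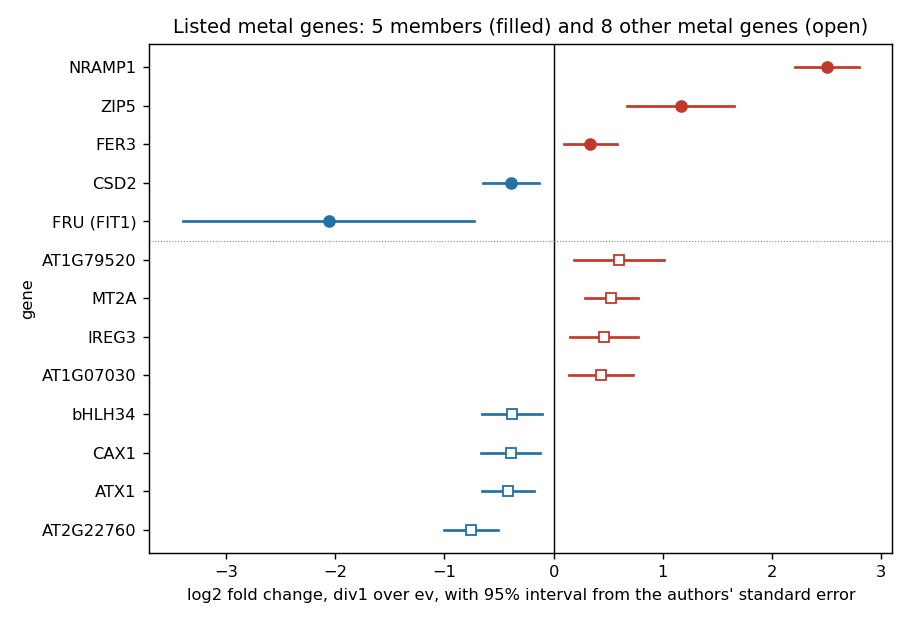
Log2 fold change of div1 over ev (horizontal axis) for each listed metal gene, with the 95% interval from the authors' standard error. The 5 members are filled circles above the dotted line and the 8 other metal genes are open squares under it. NRAMP1 and ZIP5 stand at 2.50 and 1.16, FRU at -2.06 has the widest interval, and the other members lie within 0.39 of 0.

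Among the iron regulators, FIT fell. FIT (AT2G28160, annotated as FRU with the synonym FIT1, chromosome 2, 12004658 to 12006276, plus strand, TAIR10.1) is the bHLH factor of root iron uptake, and its annotation places the transcript in the outer cell layers of roots. It had the lowest mean of the 5 genes, at 58.9 normalized counts, with estimated group means of 22.8 in div1 libraries and 95 in ev libraries, or 16.5 and 68.8 per kilobase of exon. The log2 fold change in the authors' deposited table was -2.06 (SE 0.68, adjusted p 0.0192), which is 0.24-fold with an interval of 0.10 to 0.60. Of the 1312 genes called lower, 52 had a larger change. Its SE exceeds the median of 0.47 among the 259 listed genes of similar mean, so the size is loosely fixed. FIT has 4 exon blocks and overlaps no annotated gene. Its coding sequence of 957 bases is 58.0% to 61.8% identical to bHLH38, bHLH39, bHLH100 and bHLH101 over 649 to 752 aligned bases. No identical run exceeds 11 bases.

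The bHLH partners of FIT and its targets FRO2 and IRT1 have no row. None of bHLH38, bHLH39, bHLH100 and bHLH101 is listed, nor is PYE, a bHLH repressor of iron storage and transport genes, nor BTS, a ubiquitin ligase that limits the iron response. FRO2 and IRT1, which depend on FIT in roots, are not listed, nor are FRO3 of mitochondria and FRO7 of chloroplasts. Of these genes bHLH101 overlaps a listed gene, GLU1, by 79 exon bases. Neither PIP5K4, which shares 386 exon bases with bHLH38, nor LPR1, which shares 24 with FRO3, is listed. The 4 nicotianamine synthases NAS1 to NAS4, the metal-nicotianamine carriers YSL1, YSL2 and YSL3, and OPT3, which loads iron into phloem, are not listed.

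**Figure D4:**
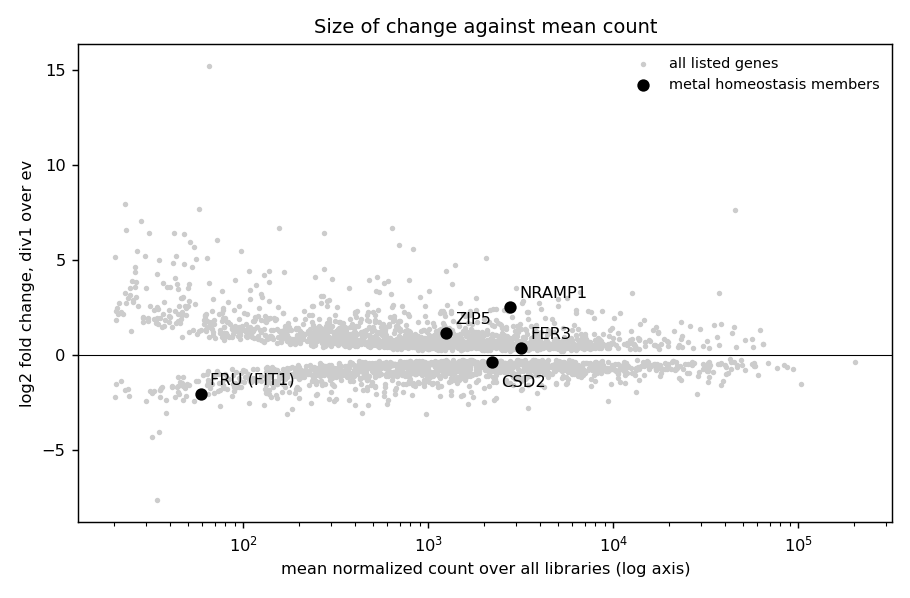
Log2 fold change of div1 over ev (vertical axis) against the mean normalized count over all libraries (horizontal log axis) for the 2958 listed genes (grey) and the 5 members (black). NRAMP1 lies high among genes of its mean of 2764, FRU lies at a low mean of 58.9, and FER3 and CSD2 lie next to the gap that the call threshold leaves around 0.

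In the group of superoxide dismutases, which disarm superoxide, CSD2 fell. CSD2 (AT2G28190, chromosome 2, 12014412 to 12016569, plus strand, TAIR10.1) encodes the plastid copper/zinc enzyme. Its mean normalized count was 2222, with estimated group means of 1926 in div1 libraries and 2517 in ev libraries, or 1829 and 2390 per kilobase of exon. The log2 fold change in the authors' deposited table was -0.39 (SE 0.13, adjusted p 0.0241), a fall to 0.77-fold with an interval of 0.64 to 0.91. Of the 1312 lower calls, 1201 were larger. CSD1, the cytosolic copper/zinc enzyme, and FSD1, the iron enzyme, are not listed. CSD2 is 64.7% identical to CSD1 in coding sequence, with a longest run of 17 bases.

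CSD1, CSD2 and CCS, the chaperone that inserts copper into them, are known targets of miR398. The microRNA and the placement with most complementary bases in each transcript are given because CSD2 has a row in the table. CSD1 and CCS have none, so no difference between them and CSD2 is shown. Whether miR398 bears on the change in CSD2 was not tested. In miR398 capitals mark the seed, bases 2 to 8. In the sites they mark bases complementary to miR398 (A with U, G with C) in an alignment without gaps. A G that faces a U stays lowercase. Sequences are from RefSeq TAIR10.1.
miR398a-3p, chr2:1041012-1041032, plus strand: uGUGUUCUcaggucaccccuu
CSD1 site, chr1:2827177-2827685, plus strand: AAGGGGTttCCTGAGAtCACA
CSD2 site, chr2:12015572-12015592, plus strand: tgcGGGTGACCTGgGAAacat
CCS site, chr1:4267521-4267541, minus strand: AttGGGaGACCTGgGAACACt
The CSD1 site is complementary at 18 of 21 positions and lies in the 5′ UTR. It is joined across an intron, which is why its coordinates span more than its length. The CCS site is complementary at 16 and the CSD2 site at 13 positions, both in coding sequence. These 3 counts are against miR398a-3p. They leave out a G that faces a U and allow no unpaired bulge, so they do not rank the sites as targets. The best placement in CSD3, a peroxisomal relative, is complementary at 13 positions to miR398b-3p, which is not printed here. The miR398b-3p and miR398c-3p sequences share this seed. The 3 precursor genes of miR398 have no row in the table, and mature microRNAs are outside poly(A) libraries.

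FIT and CSD2 are near neighbours on chromosome 2, with 8135 bases between them and both on the plus strand. Of the 3 annotated genes in between, which include the cation exchanger genes ATCHX7 and ATCHX8, 0 are listed. The next protein-coding gene after CSD2, AT2G28200, is listed in the other direction with a log2 fold change of 1.48 (SE 0.17, the authors' deposited table).

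The MTP, HMA and COPT genes among the 55 gave no call. The MTP carriers are ZAT for vacuolar zinc, MTPA2, MTP11 for manganese and AT3G58060. The HMA pumps are HMA2 and HMA4, which load zinc into xylem, HMA3 of the vacuole and HMA5 for copper. None of these is listed, nor are the copper transporters COPT1, COPT2, COPT5 and COPT6. The copper regulator SPL7 and the copper chaperone CCH are not listed. In total 8 of the 13 families, with 26 genes, have no row.

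Outside the 55, a list of 83 other metal genes had 4 higher and 4 lower calls, with 75 not listed. That is 9.64% called, again against 16.4% of all genes. In the authors' deposited table, the higher calls with their log2 fold changes were MT2A, a metallothionein that binds copper and other metals, at 0.53 (SE 0.12, adjusted p 3.36e-04), AT1G79520, annotated as a cation efflux protein, at 0.60 (SE 0.21), IREG3, a plastid envelope carrier of the ferroportin family, at 0.46 (SE 0.16), and AT1G07030, annotated as a mitochondrial carrier, at 0.44 (SE 0.15). The lower calls, from the authors' deposited table and on the same scale, were AT2G22760, a bHLH gene, at -0.76 (SE 0.13, adjusted p 7.84e-08), ATX1, a cytosolic copper chaperone, at -0.41 (SE 0.12), CAX1, a vacuolar calcium exchanger, at -0.39 (SE 0.14), and bHLH34, an activator of the iron deficiency response, at -0.38 (SE 0.14). None of these 8 reached 2-fold, and their median size was 0.45 on the log2 scale. The median size over the 5 members was 1.16, the value of ZIP5, and over all 2958 listed genes 0.78. These medians cover called genes only, so they do not compare the response of the 55 genes with that of other genes. AT1G79520 overlaps 3 small nucleolar RNA genes by 182 exon bases. The zinc sensors bZIP19 and bZIP23 are not listed. Of the 3 IRONMAN peptide genes among the 83, none is listed. Among them, AT2G30766 shares 330 exon bases on the other strand with CYP71A13, a camalexin gene that is listed. It also shares 78 with AT2G30760, which is listed too.

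**Figure D5:**
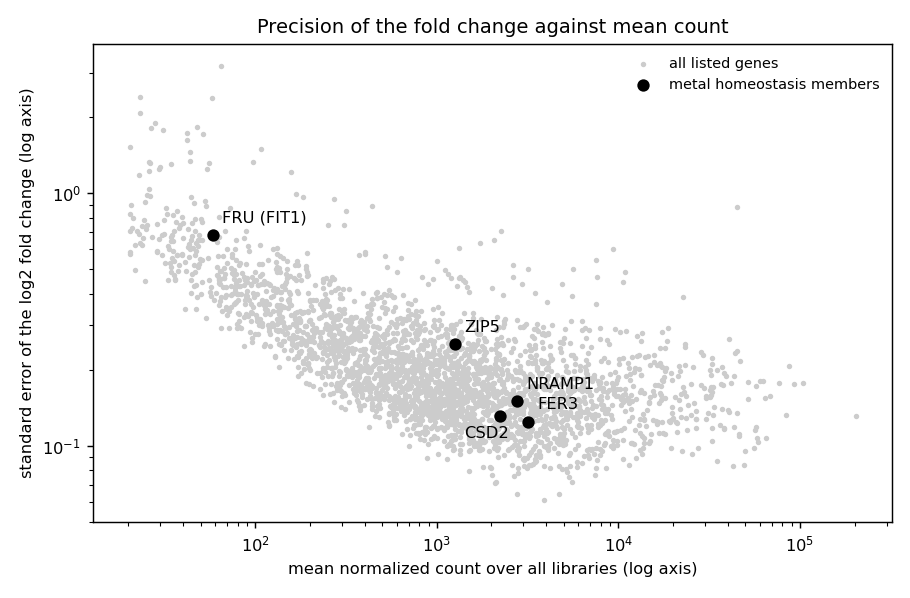
Standard error of the log2 fold change (vertical log axis) against the mean normalized count over all libraries (horizontal log axis) for the 2958 listed genes (grey) and the 5 members (black). Errors grow toward low means, and FRU at 0.68 and ZIP5 at 0.25 lie above the medians of 0.47 and 0.17 of listed genes with similar means.

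How small a change could have been listed depends on the mean. Among the 257 listed genes with a mean between 20 and 100, the median SE was 0.53, and a gene with that SE needs a 2.63-fold change to reach the smallest listed test statistic. Between 500 and 2000, where ZIP5 lies, the median SE was 0.18 and the corresponding change 1.38-fold, and between 2000 and 10000, where NRAMP1, FER3 and CSD2 lie, it was 1.31-fold. For members without a row the mean is not known, so no bound can be put on their change. Markers of leaf cell types gave 0 listed genes of 17 in the authors' DESeq2 table, against 16.4% of all genes tested. These markers have no p-value there, so neither the leaf identity of the cells nor a shift in cell types could be checked. Fewer cells of a type and less RNA per cell cannot be told apart in such libraries.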

How the data were processed

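Poly(A) RNA of 8 libraries, 4 labelled div1 and 4 labelled ev, was compared. The submitters' processing notes name fastp 0.21.0 as well as HISAT2, DESeq2, featureCounts 2.0.1 and, as build, TAIR10, without settings. Per the file headers, the columns of the deposited table are DESeq2's. They are a signal (normalized counts averaged by the authors across libraries), the log2 fold change, its standard error and test statistic (both entered as a score), and each p-value before and after adjustment. The table holds 2958 genes with a largest adjusted p of 0.0499, so the depth per library is unknown. No test over samples was run.

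The number of genes tested, 18010, was worked out by multiplying each adjusted p by its rank over p. The product lay within 0.5 of its largest value for 2548 genes, and the step was tested on simulated data. An estimated group mean splits the overall mean by the fold change, with 4 libraries a group. Intervals are the log2 fold change plus or minus the normal 95% range of the standard error. Names, coordinates and sequences came from RefSeq TAIR10.1, to which all 138 listed identifiers matched. Levels per kilobase use the merged exons of a gene. The planned protein comparison was made on coding sequences by global alignment (match 2, mismatch -1, gap opening -6, extension -0.5), since no protein table was used here. Gaps at the ends of a sequence carried no penalty. Identity is the share of matching bases among aligned bases, with gaps left out, so it does not cover the whole coding sequence. Computations used Python 3.11.15, pandas 2.3.3, scipy 1.17.1, Biopython 1.88 and matplotlib 3.10.9.

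The 55 genes, the list of 83 other metal genes, the words searched and the alternatives were chosen with earlier results of these data known. Named are the members and other metal genes with a row, with unlisted ones named by family. The miR398 sites, the neighbours and the 1000-base windows were added after the values were seen. Alternatives were an adjusted p under 0.01, calls of at least 2-fold, a mean of at least 50, and leaving out genes that overlap another.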

Additional observations from a re-analysis of the deposited data

How the results depend on the processing

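The counts of called genes were recomputed under 4 alternatives. Of the 3 higher members, 2 remained at an adjusted p under 0.01 (NRAMP1 and ZIP5), the same 2 at 2-fold or more, and 2 without overlapping genes (ZIP5 and FER3), since NRAMP1 overlaps CCR2. Of the 2 lower members, 0 passed an adjusted p under 0.01, and 1, FRU, reached 2-fold. Of the other metal genes, 1 higher gene (MT2A) and 2 lower genes (AT2G22760 and ATX1) passed an adjusted p under 0.01, and 0 higher and 0 lower reached 2-fold. Without overlapping genes, 3 of the 4 higher other metal genes were left. A mean of at least 50 could change no count, since the lowest mean among these called genes was 58.9, for FRU. The share called in either direction among all 18010 genes was 10.9% at an adjusted p under 0.01 and 5.67% at 2-fold or more. These shares were not split by direction, and none was worked out for the other alternatives. No paired analysis was possible because the table holds no values per library. For the same reason, another normalization, a refit after a filter on low counts and leaving out each replicate were not run.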
